A study of Mus musculus with 8 samples.

Results

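Mitosis is carried out by a set of kinases, motor proteins, kinetochore parts and ubiquitin ligase regulators that are made together late in the cell cycle. The 43 genes described here belong to that machinery. They are given as a list of names, drawn up with earlier results of these data known, and the list sets no threshold on a measured value. It holds Cdk1, its cyclins and Cks subunits, the kinases Plk1, Aurka and Nek2, the chromosomal passenger complex, the spindle checkpoint, the kinetochore, the regulators of the anaphase-promoting complex (APC/C), the spindle and cytokinesis motors, the proliferation markers Top2a and Mki67, and the transcription factors Foxm1 and Mybl2. All 43 were found among the 21997 genes listed in both count tables, and all 43 passed the filter on low counts that left 17925 genes for testing.

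RNA of 8 single follicles from C57BL/6 mouse ovaries was sequenced, 2 libraries per group. A preantral follicle (PF) is an oocyte wrapped in growing layers of granulosa cells, and a small antral follicle (SAF) is a later stage with a first fluid-filled cavity. Follicles came from wild type mice (PF-WT, SAF-WT) or carry the source label transplanted FGSCs, female germline stem cells (PF-TF, SAF-TF). The sources used here do not give the age of the mice, the hosts of the transplanted cells, the state of the host ovaries or the animal behind each follicle, so p-values measure the spread between these libraries only. Single follicles were separated with a needle, and whether cells on their outside were removed is not stated either.

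In dividing cells the mitotic genes are held silent early in the cycle by the MuvB complex together with p130 and E2F4. They are switched on in G2 when MuvB, which sits on CHR elements near the start sites, binds B-Myb (Mybl2) and then FoxM1. Many of the same promoters hold CCAAT boxes, which are bound by NF-Y. Rising CDK1 activity then drives entry into mitosis, the spindle checkpoint holds the APC/C back until every kinetochore is attached, and the APC/C ends mitosis by marking cyclin B and securin for destruction. In a growing follicle these genes are used by granulosa cells, which divide, and by the oocyte, which does not divide but stores many of the same messenger RNAs for the meiotic divisions.

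Total counts were 7656108 to 9805287 per library, and 3 counts, the most that a count of 0 allows, correspond to 0.301 to 0.394 CPM (normalised read counts, scaled with TMM factors). This floor covers counting error only. The least abundant member still had at least 10 counts in every library. Of the 15 oocyte markers (such as Gdf9, Zp3 and Nlrp5), none was at 0 in a whole group, and their summed level was 9942 to 11004 CPM in PF-WT and 794 to 3865 CPM in SAF-WT, and 22130 to 29056 CPM in PF-TF and 316 to 662 CPM in SAF-TF. The 14 granulosa markers summed to 3287 to 4186 CPM in PF-WT, 4197 to 4783 in PF-TF, 1485 to 1532 in SAF-WT and 2357 to 3709 in SAF-TF. The 8 stromal markers were higher in the SAF groups, and summed to 203 to 491 CPM in PF-WT, 44.7 to 112 in PF-TF, 5784 to 8129 in SAF-WT and 1480.0 to 2149 in SAF-TF. Luteal cell markers (8 genes, among them Akr1c18 and Star) set SAF-TF apart, at 26649 to 37016 CPM against 3355 to 4061 in SAF-WT, 1694 to 2932 in PF-TF and 759 to 1047 in PF-WT.

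The sequence just before the start site is shown for 6 members picked for their different calls between the stages, to let their CCAAT boxes and CHR forms be compared. Cdk1, Cks1b and Top2a did not pass the test between PF-WT and SAF-WT, although Cdk1 was lower in SAF in TF. Plk1, Cdc20 and Cdca8 were lower in SAF in both sources. Each line gives the 150 bases before the RefSeq start on GRCm38.p6, 5′ to 3′ along the gene's own strand. Capitals mark CCAAT and TTTGAA on either strand (ATTGG and TTCAAA are their reverse complements) and the related TTTAAA. The windows are chr10:69352913-69353062 (minus strand) for Cdk1, chr3:89418292-89418441 (minus strand) for Cks1b, chr11:99024190-99024339 (minus strand) for Top2a, chr7:122159285-122159434 (plus strand) for Plk1, chr4:118437344-118437493 (minus strand) for Cdc20 and chr4:124936918-124937067 (minus strand) for Cdca8.
Cdk1: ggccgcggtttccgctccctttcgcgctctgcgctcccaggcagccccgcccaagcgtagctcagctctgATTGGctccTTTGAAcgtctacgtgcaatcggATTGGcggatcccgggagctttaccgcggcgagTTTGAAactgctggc
Cks1b: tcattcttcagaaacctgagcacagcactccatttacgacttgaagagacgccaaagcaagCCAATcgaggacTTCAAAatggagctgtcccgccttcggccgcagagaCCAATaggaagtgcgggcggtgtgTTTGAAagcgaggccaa
Top2a: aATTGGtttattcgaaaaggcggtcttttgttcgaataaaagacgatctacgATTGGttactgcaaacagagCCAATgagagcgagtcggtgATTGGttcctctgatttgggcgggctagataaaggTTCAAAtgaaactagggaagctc
Plk1: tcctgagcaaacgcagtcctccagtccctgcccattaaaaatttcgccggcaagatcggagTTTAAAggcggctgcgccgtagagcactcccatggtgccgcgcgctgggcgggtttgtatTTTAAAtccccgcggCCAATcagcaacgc
Cdc20: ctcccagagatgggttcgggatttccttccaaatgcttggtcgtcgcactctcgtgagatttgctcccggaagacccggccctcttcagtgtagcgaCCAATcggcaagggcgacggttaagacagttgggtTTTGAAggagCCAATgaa
Cdca8: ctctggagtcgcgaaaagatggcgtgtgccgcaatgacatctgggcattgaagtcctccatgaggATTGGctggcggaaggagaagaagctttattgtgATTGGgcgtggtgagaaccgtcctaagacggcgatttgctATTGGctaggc

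Bases before the start are numbered backwards from -1, and a position is that of the first base of a match. Cdk1 held CCAAT boxes at -80 and -48 and TTTGAA at -71 and -15. Cks1b had the same order of elements at other spacings, with CCAAT at -89 and -41 and TTTGAA at -77 and -17. Of these, only the TTTGAA at -17 was on the same strand as its counterpart in Cdk1. In Top2a the 4 printed CCAAT boxes lay at -149, -98, -78 and -58, with TTTGAA at -23. Among the printed members that were lower in SAF in both sources, Cdc20 held CCAAT at -53 and -8 around a TTTGAA at -18. Cdca8 had 3 printed CCAAT boxes, at -85, -51 and -11. Past the start it held TTTGAA at position 14 and a further CCAAT at position 19. Plk1 held CCAAT at -14, TTTAAA at -89 and -29, and TTTGAA at position 31.

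Promoter windows of 300 bases (250 before to 50 after the start) were matched for 36 of the 43 members, and Kif20a, Foxm1, Aurkb, Ccna2, Tpx2, Cdc25c and Incenp are named only. For 33 of the 36 windows the last 20 bases lay in a GENCODE transcript of the same gene, so a few starts may not be the ones used here. CCAAT on either strand was found in 28 of 36 member promoters (77.8%, 95% Wilson interval 61.9 to 88.3%), against 38.5% of the 11441 promoters of tested genes and 37.9% of all 27018 promoters. TTTGAA was found in 27 of 36 (75.0%, interval 58.9 to 86.3%), against 12.5% and 18.1%. For TTTAAA the count was 9 of 36 (25.0%), against 9.47% and 13.2%. The E2F-like TTTNNCGC was found in 4 of 36 (11.1%), against 8.06% and 5.27%, and GGGCGG, a GC-rich stretch that covers the core of CDE elements and also that of GC boxes, in 29 of 36 (80.6%), against 59.9% and 35.9%. Matches of different motifs were counted separately and may share bases. A match is a description of letters and not evidence of binding.

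The element's place differed among members. Within the 100 bases before the start, TTTGAA was present in 9 of 36 members (25.0%), against 3.25% of promoters of tested genes. These were 2 of the 21 matched members that fell in wild type and 7 of the 15 that did not pass that test. Over the whole window the counts were 14 of 21 and 13 of 15, and 7 members, all among those 15, had 2 or more copies. CCAAT was found in 16 of 21 and 12 of 15, and 2 or more copies of it in 9 of 21 and 11 of 15. Nuf2, Pttg1, Mad2l1 and Mybl2 had no match to the CCAAT box or to either CHR form in the window used. For Pttg1 and Mybl2 that window lay inside the annotated gene, so the bases before the gene's outermost start were not searched. No test was made of these splits, whose sets were formed from the expression data.

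**Figure D1:**
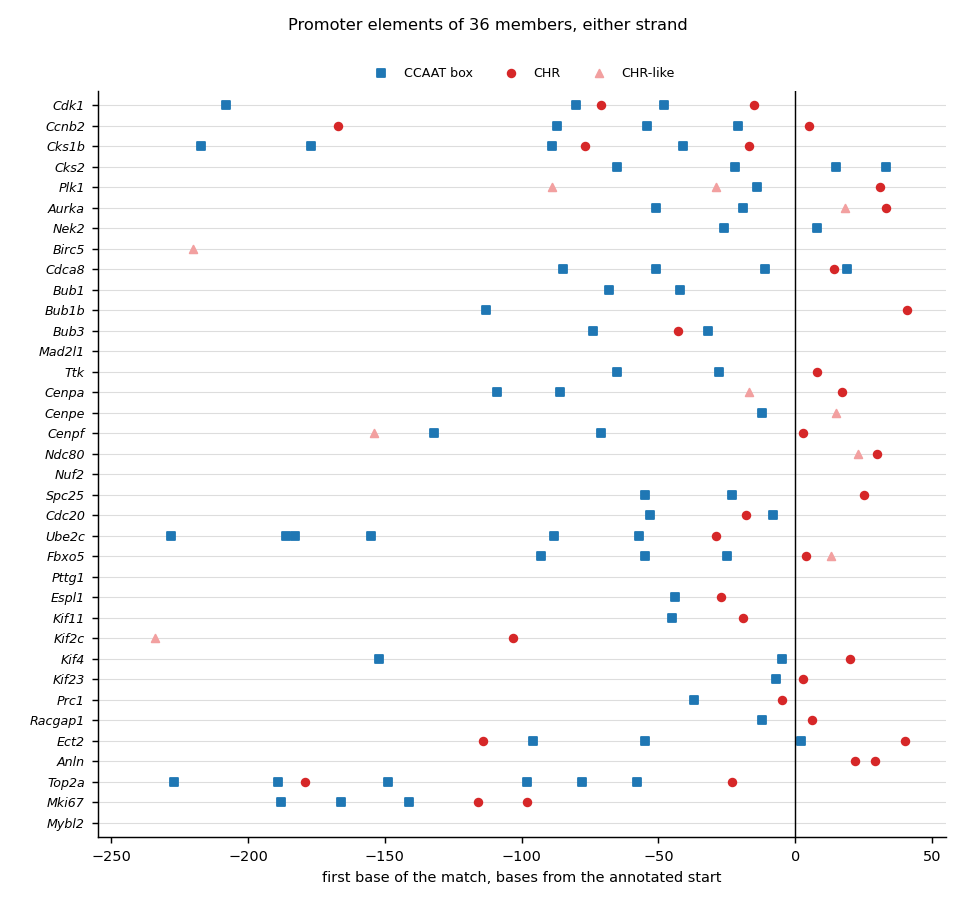
Positions of CCAAT boxes (squares), CHR elements TTTGAA (circles) and CHR-like TTTAAA (triangles) on either strand in the promoter windows of 36 members, one row per gene; the x axis is the distance in bases of the first base of each match from the annotated start, marked by the vertical line. CCAAT boxes lie mostly within 100 bases before the start, and many TTTGAA matches lie just after it.

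Between the preantral and the small antral stage, the majority of the mitotic genes fell in wild type follicles and most fell in follicles from transplanted cells. In wild type, 24 of 43 members fell from PF to SAF and 0 rose (edgeR quasi-likelihood test, Benjamini-Hochberg adjusted over all 17925 genes; background 22.5% of genes lower and 12.7% higher). In TF, 37 of 43 fell and 0 rose (background 25.0% lower, 18.2% higher). At an unadjusted p under 0.05, and in the DESeq2 Wald test, 0 members were higher in either stage comparison. The members' median log2 fold change was -1.19 in wild type, beside -0.20 over all genes tested, and -1.91 in TF, beside -0.08. The 2 libraries of one stage did not overlap those of the other in 36 members that were lower and 3 that were higher in SAF-WT (background 40.0% and 30.9%), and in 40 that were lower and 0 that were higher in SAF-TF (background 39.5% and 34.8%). Fewer dividing cells and less RNA per cell cannot be told apart in a whole follicle.

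The size of these differences depends on how libraries are scaled. With TMM, 2268 genes were higher and 4026 lower in SAF-WT. With the scale factors of the authors' own tables, recovered from their columns, 3593 were higher and 3117 lower, and the median over all genes moved from -0.20 to 0.14. In TF the same change moved the split from 3261 higher and 4483 lower to 4566 and 3558, and the median from -0.08 to 0.27. The members' counts moved less: with the authors' factors 21 were lower and 0 higher in wild type, and 33 were lower and 0 higher in TF. In the authors' deposited table, 19 members were lower and 3 higher in SAF-WT at an FDR under 0.05 (14.0% and 20.7% of its genes), and 34 were lower and 0 higher in SAF-TF (16.7% and 24.0%). The 3 that the deposited table calls higher, Cenpa, Cks1b and Spc25, had positive log2 fold changes here too but did not pass the test.

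By their calls the members formed 3 sets. There were 24 that fell in both sources, 13 that passed the threshold in TF and not in wild type, and 6 that passed in neither (Bub3, Cdc25c, Cenpa, Cks1b, Mki67 and Top2a). Over all genes, 17.6% were lower in both sources and 7.37% in TF only. A call in TF and not in wild type does not show that the stage effects differ, and the direct test of that difference is given for single members below.

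**Figure D2:**
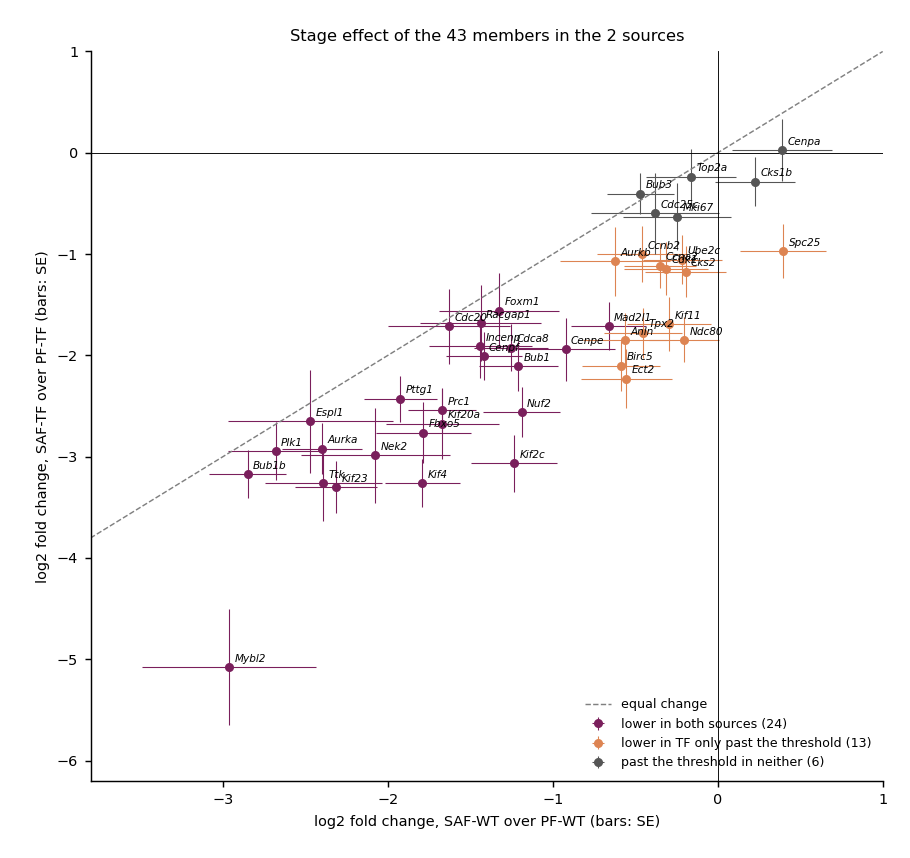
Log2 fold change from PF to SAF in wild type (x axis) and in TF (y axis) for the 43 members, with standard errors as bars and colours for the calls (24 lower in both sources, 13 past the threshold in TF and not in wild type, 6 in neither). The dashed line marks equal change; all but 1 of the members lie below it.

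**Figure D3:**
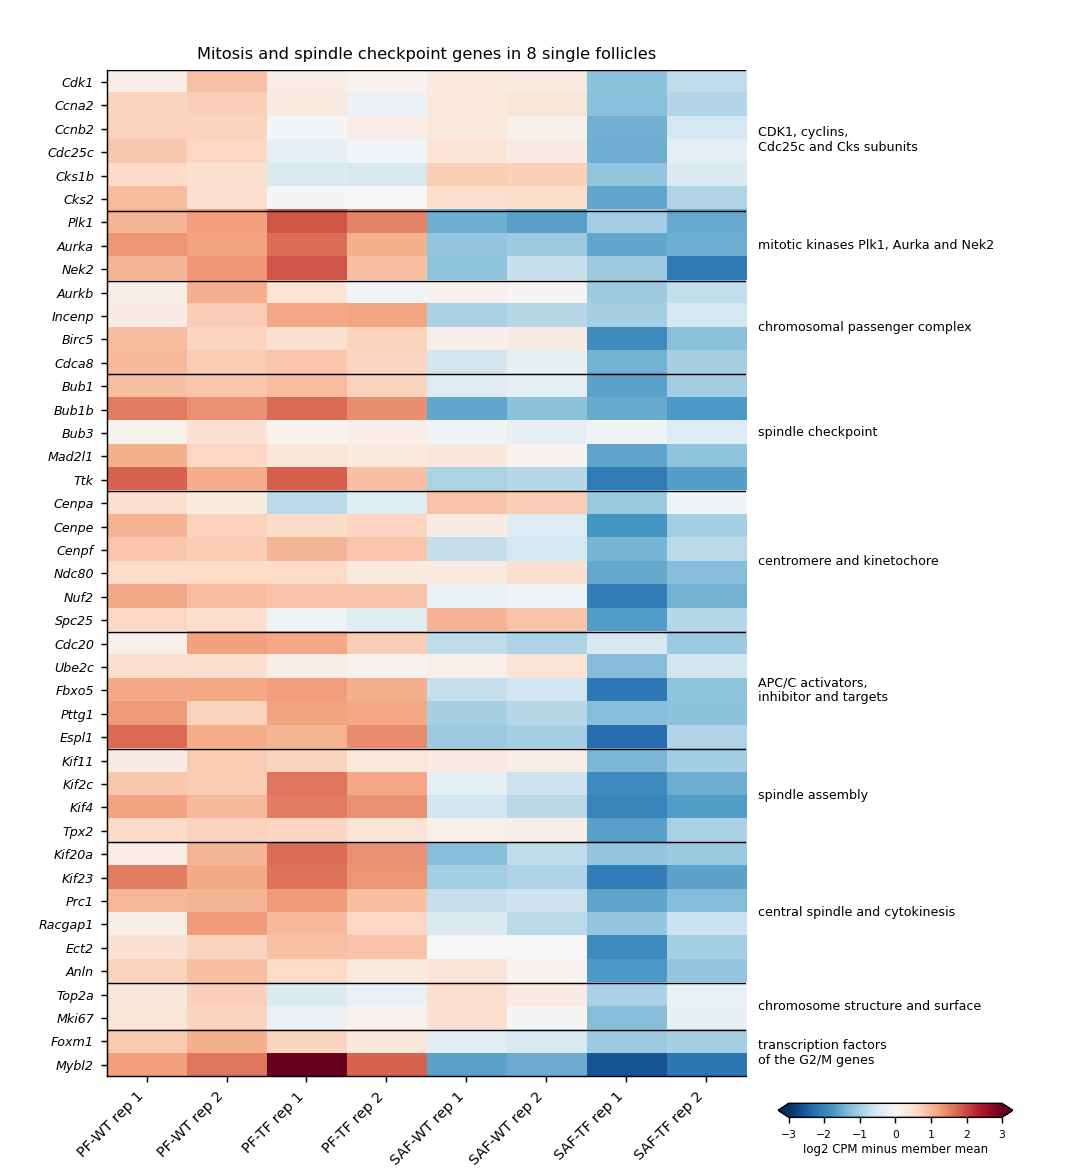
Log2 CPM of the 43 members minus each member's mean over the 8 libraries (colour, in log2 units), with libraries in columns and members in rows grouped by role. The 2 SAF-TF columns are low in nearly every row, and the 2 SAF-WT columns are low in rows such as Plk1, Aurka, Bub1b and Mybl2 and not in rows such as Cdk1, Cks1b and Spc25.

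CDK1 and its partners start mitosis. None of the 6 members of this role (Cdk1, Ccna2, Ccnb2, Cdc25c, Cks1b, Cks2) passed the stage test in wild type. There 5 had a negative log2 fold change and 1 a positive one. In TF, 4 passed as lower in SAF. Cyclin B1, which is outside the 43 and is described with the wider machinery, fell in both sources. Cdk1, the kinase that drives mitotic entry, stood at 242 and 389 CPM in PF-WT against 256 and 252 CPM in SAF-WT, and 246 and 227 CPM in PF-TF against 90.2 and 124 CPM in SAF-TF. The SAF-TF libraries were the lowest of the 8 and did not overlap any other group. The log2 fold change from PF to SAF was -0.31 ± 0.25 (SE) in wild type and -1.14 ± 0.26 (SE; adjusted p = 0.00602) in TF, and the difference between the 2, -0.83 ± 0.36, did not pass its test (adjusted p = 0.309). Without SAF-TF replicate 1 the fall of Cdk1 in TF missed the threshold (-0.93, adjusted p = 0.0541).

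Cyclin A2 (Ccna2), which works with CDK1 and CDK2 from S phase into mitosis, had 182 and 189 CPM in PF-WT against 143 and 148 CPM in SAF-WT, and 138 and 102 CPM in PF-TF against 48.4 and 62.3 CPM in SAF-TF. Its PF-TF libraries lay below those of SAF-WT. For cyclin B2 (Ccnb2), a direct CDK1 activator, the values were 361 and 357 CPM in PF-WT against 273 and 249 CPM in SAF-WT, and 215 and 262 CPM in PF-TF against 83 and 156 CPM in SAF-TF. Both cyclins fell in TF, Ccna2 by 2.17-fold and Ccnb2 by 2.00-fold, and Ccnb2 did not with the authors' scale factors (log2 fold change -0.64, adjusted p = 0.109). The small subunit Cks1b, which helps cyclin-CDK complexes dock on phosphorylated targets, was the most abundant member per kilobase in SAF-WT. It had 686 and 636 CPM in PF-WT against 779.5 and 765 CPM in SAF-WT, and 343 and 334 CPM in PF-TF against 204 and 352 CPM in SAF-TF. Wild type libraries were about the same at both stages and above every TF library. Its sister subunit Cks2 had 406 and 297 CPM in PF-WT against 304 and 311 CPM in SAF-WT, and 204 and 209 CPM in PF-TF against 70.9 and 112 CPM in SAF-TF and fell 2.26-fold in TF. Cdc25c, the phosphatase that releases CDK1 from inhibition, was scarce, at 11 to 22.7 CPM in PF and 4.73 to 17.4 CPM in SAF, and passed no test. The fall of Ccna2 in TF missed the threshold without PF-TF replicate 1, and that of Ccnb2 without either PF-TF library or without SAF-TF replicate 1.

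The mitotic kinases behaved otherwise, and all 3 fell in both sources. Plk1 (Polo-like kinase, needed for centrosome maturation, mitotic entry and spindle assembly) had 56.7 and 65.8 CPM in PF-WT against 10.1 and 9.01 CPM in SAF-WT, and 103 and 77.9 CPM in PF-TF against 13.7 and 9.70 CPM in SAF-TF. Aurka, the centrosomal Aurora kinase, had 209.8 and 191 CPM in PF-WT against 36.7 and 39.2 CPM in SAF-WT, and 268 and 175 CPM in PF-TF against 28 and 30.3 CPM in SAF-TF. Every SAF library was below every PF library for both genes. Plk1 fell 6.41-fold in wild type (log2 -2.68 ± 0.29 SE, adjusted p = 0.000195) and 7.69-fold in TF. Aurka fell 5.28-fold in wild type (log2 -2.40 ± 0.24 SE, adjusted p = 0.000147) and 7.57-fold in TF. Nek2, a kinase that separates centrosomes, fell 4.22-fold and 7.93-fold from 22.9 to 45.2 CPM in PF to 2.82 to 7.7 CPM in SAF, in wild type not without SAF-WT replicate 1 (adjusted p = 0.0672). The differences between the sources' stage effects did not pass their test, at -0.26 ± 0.39 for Plk1, -0.52 ± 0.33 for Aurka and -0.91 ± 0.63 for Nek2.

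These kinases and CDK1 changed unequally relative to each other within the same libraries, a comparison that no scaling factor touches and that was made after the values were seen. The ratio of Aurka to Cdk1 counts went from 0.866 and 0.492 in PF-WT to 0.143 and 0.156 in SAF-WT, and from 1.09 and 0.769 in PF-TF to 0.311 and 0.245 in SAF-TF. For Plk1 over Cdk1 the ratios went from 0.234 and 0.169 in PF-WT to 0.0394 and 0.0358 in SAF-WT, and from 0.418 and 0.343 in PF-TF to 0.152 and 0.0783 in SAF-TF. Both ratios were lowest in SAF-WT. Mki67 over Cdk1, by contrast, ran from 0.395 to 0.760 over the 8 libraries with overlapping groups. Top2a over Cdk1 overlapped between PF-WT (0.728 and 0.591) and SAF-WT (0.765 and 0.661). In TF it was higher in SAF without overlap, at 0.429 and 0.539 in PF-TF against 0.789 and 0.989 in SAF-TF.

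The chromosomal passenger complex corrects wrong spindle attachments and later guides cytokinesis, and its 4 genes split. Incenp, the scaffold, and Cdca8 (borealin) fell in both sources. Aurkb, the catalytic kinase, and Birc5 (survivin) passed the threshold in TF and not in wild type. Birc5 had 849.7 and 693 CPM in PF-WT against 502 and 526 CPM in SAF-WT, and 611 and 701 CPM in PF-TF against 119 and 186 CPM in SAF-TF. SAF-TF stood well below the other 3 groups, whose values ran from 502 to 850 CPM. The log2 fold change of Birc5 was -0.59 ± 0.24 (SE) in wild type and -2.10 ± 0.25 (SE; adjusted p = 0.000177) in TF, with a difference of -1.52 ± 0.33 whose adjusted p was 0.0729. Cdca8 had 262 and 225 CPM in PF-WT against 90.9 and 113 CPM in SAF-WT, and 236 and 208 CPM in PF-TF against 49.6 and 67.2 CPM in SAF-TF, a fall of 2.39-fold in wild type and 3.79-fold in TF. Incenp, at 22.5 to 42.4 CPM in PF, was at 9.46 to 13.1 CPM in SAF, and its fall in wild type missed the threshold without SAF-WT replicate 1 (adjusted p = 0.0576). Aurkb had 39 and 72.7 CPM in PF-WT against 37.4 and 35.2 CPM in SAF-WT, and 45.6 and 32.2 CPM in PF-TF against 16.4 and 20.6 CPM in SAF-TF. It fell 2.10-fold in TF, a call lost with the authors' scale factors (log2 fold change -0.71, adjusted p = 0.102), with GC and length correction, and without PF-TF replicate 1 or either SAF-TF library.

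Among the spindle checkpoint genes, 4 of 5 fell in both sources. Bub1b encodes BubR1, the part of the mitotic checkpoint complex that holds the APC/C back, and had 186 and 165 CPM in PF-WT against 21.5 and 27.1 CPM in SAF-WT, and 207 and 167 CPM in PF-TF against 22.2 and 19.2 CPM in SAF-TF. Its SAF libraries were all well below its PF libraries. The fall was 7.21-fold in wild type (log2 -2.85 ± 0.24 SE, adjusted p = 6.15e-05) and 9.02-fold in TF (log2 -3.17 ± 0.24 SE, adjusted p = 2.23e-05). Ttk (Mps1), the kinase that starts checkpoint signalling at kinetochores, had 138 and 87 CPM in PF-WT against 20.8 and 22 CPM in SAF-WT, and 138 and 74.9 CPM in PF-TF against 9.35 and 12.9 CPM in SAF-TF and fell 5.24-fold and 9.59-fold. Bub1, which recruits BubR1 and protects centromeres, had 132 and 126 CPM in PF-WT against 53.5 and 57.9 CPM in SAF-WT, and 134 and 111 CPM in PF-TF against 23 and 33.9 CPM in SAF-TF. It fell 2.31-fold in wild type and 4.30-fold in TF.

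Mad2l1 (Mad2), which binds and blocks Cdc20, had 614 and 442 CPM in PF-WT against 362 and 305 CPM in SAF-WT, and 371 and 355 CPM in PF-TF against 96.1 and 126 CPM in SAF-TF. SAF-TF was again the lowest group. Its fall in wild type, 1.58-fold, was at the edge of the threshold (adjusted p = 0.0461) and was lost in 11 alternative settings, while the 3.27-fold fall in TF kept its call in all. Bub3, the partner of Bub1 and BubR1 that also serves outside mitosis, had 265 and 335 CPM in PF-WT against 226 and 207 CPM in SAF-WT, and 263 and 279.8 CPM in PF-TF against 225 and 186 CPM in SAF-TF. It passed no test, and its spread over all 8 libraries was small beside that of Bub1b: Bub1b counts were 0.491 to 0.786 of Bub3 counts in PF and 0.0948 to 0.131 in SAF.

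Kinetochore genes, which link chromosomes to spindle fibres, fell in 3 of 6 cases in wild type and 5 of 6 in TF. Ndc80 and Nuf2 form one end of the NDC80 complex, the main microtubule anchor, and Spc25 lies at the other. Ndc80 had 101 and 102 CPM in PF-WT against 82.1 and 94.2 CPM in SAF-WT, and 102 and 83.5 CPM in PF-TF against 23.4 and 28.1 CPM in SAF-TF. The other 6 libraries lay close together and the 2 SAF-TF libraries stood apart. Its stage effect was -0.20 ± 0.21 (SE) in wild type and -1.85 ± 0.22 (SE; adjusted p = 0.000211) in TF. Their difference, -1.64 ± 0.31 on the log2 scale, was the only one among the 43 members to pass the direct test (adjusted p = 0.0425; background 0.245% of genes lower and 0.658% higher). It missed the threshold with the replicate number as a block (adjusted p = 0.0855), with GC and length correction (0.0551) and with each library left out in turn (0.0539 to 0.185). At an unadjusted p under 0.05 in edgeR, 21 members had a stage effect more negative in TF and 0 a less negative one. The share of all genes at that unadjusted threshold was not computed. The DESeq2 Wald test called 10 members more negative and 0 less negative, beside 328 and 482 of all 17925 genes.

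Nuf2 had 292 and 251 CPM in PF-WT against 115 and 123 CPM in SAF-WT, and 236 and 238 CPM in PF-TF against 31.2 and 49.2 CPM in SAF-TF. It fell 2.28-fold in wild type and 5.90-fold in TF. Spc25 went from 313 and 288 CPM in PF-WT to 422 and 368 in SAF-WT, the largest positive log2 fold change of the members (0.40 ± 0.26 SE, adjusted p = 0.265), and from 187 and 159.9 in PF-TF to 64 and 113 in SAF-TF. In the authors' deposited table its log2 ratio in wild type was 0.74 with an FDR of 4.86e-11. Cenpa, the histone variant that marks centromeres, had 265 and 225 CPM in PF-WT against 333 and 308 CPM in SAF-WT, and 106 and 143 CPM in PF-TF against 85.2 and 168 CPM in SAF-TF. Both wild type groups were above both PF-TF libraries. Cenpe, a motor that brings chromosomes to the spindle equator, had 272 and 212 CPM in PF-WT against 155 and 100.1 CPM in SAF-WT, and 192 and 206 CPM in PF-TF against 38.4 and 65.3 CPM in SAF-TF. It fell 1.90-fold in wild type (adjusted p = 0.0367, lost in 8 settings) and 3.84-fold in TF. The fall of Spc25 in TF was lost with the authors' scale factors and without either PF-TF library or SAF-TF replicate 1. Cenpf, a large kinetochore protein made in G2, had 285 and 270.1 CPM in PF-WT against 96.9 and 111 CPM in SAF-WT, and 324 and 282 CPM in PF-TF against 60.3 and 90.1 CPM in SAF-TF and fell in both sources.

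Genes of the APC/C step, which ends mitosis, mostly fell. Of 5 members, 4 fell in wild type and all 5 in TF. Pttg1 (securin, the inhibitor of separase) was the most abundant member per kilobase of the shortest principal transcript in both PF groups. It had 884 and 596 CPM in PF-WT against 185 and 205 CPM in SAF-WT, and 844 and 823 CPM in PF-TF against 152 and 158 CPM in SAF-TF. Every SAF library was well below every PF library. It fell 3.80-fold in wild type (log2 -1.92 ± 0.22 SE, adjusted p = 0.000259) and 5.39-fold in TF. Fbxo5 (Emi1), an APC/C inhibitor, had 158 and 159.9 CPM in PF-WT against 44.2 and 48 CPM in SAF-WT, and 171 and 149 CPM in PF-TF against 16.2 and 31 CPM in SAF-TF and fell 3.45-fold and 6.79-fold. Espl1 (separase, which cuts cohesin) was the scarcest member per kilobase, at 11.9 to 19.2 CPM in PF and 1.21 to 3.16 CPM in SAF.

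Cdc20, the activator that opens anaphase, had 51.9 and 109.5 CPM in PF-WT against 27.5 and 24.6 CPM in SAF-WT, and 104 and 77.7 CPM in PF-TF against 33.4 and 21.9 CPM in SAF-TF. Its PF-WT libraries differed from each other more than its SAF-WT libraries did, and the fall in wild type (3.09-fold) missed the threshold without PF-WT replicate 2, SAF-WT replicate 1 or SAF-WT replicate 2. Ube2c, the ubiquitin-conjugating enzyme of the APC/C, differed from the rest of its role. It had 525 and 512 CPM in PF-WT against 407 and 486 CPM in SAF-WT, and 416 and 393 CPM in PF-TF against 148 and 241 CPM in SAF-TF. The wild type difference did not pass the test (-0.21 ± 0.24 SE), and the 2.08-fold fall in TF missed the threshold with the authors' scale factors (adjusted p = 0.0533) and without PF-TF replicate 1.

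Spindle assembly members all fell in TF, and 2 of 4 fell in wild type. Kif11 (Eg5), the motor that pushes the spindle poles apart, had 59.9 and 85 CPM in PF-WT against 59.7 and 58.4 CPM in SAF-WT, and 80.0 and 62.6 CPM in PF-TF against 19.7 and 24.4 CPM in SAF-TF. Tpx2, which activates Aurora A on the spindle, had 173 and 187 CPM in PF-WT against 130.1 and 133 CPM in SAF-WT, and 183 and 153 CPM in PF-TF against 37.9 and 59.8 CPM in SAF-TF. For both, the SAF-TF libraries were the lowest of the 8, with no overlap. The TF falls were 3.24-fold for Kif11 and 3.43-fold for Tpx2. Kif2c (MCAK, which takes microtubules apart at kinetochores) had 70.9 and 69.1 CPM in PF-WT against 33 and 26.4 CPM in SAF-WT, and 123 and 91.2 CPM in PF-TF against 10.9 and 14.7 CPM in SAF-TF. It was the member with the largest difference between stage effects after Mybl2, -1.83 ± 0.37 (adjusted p = 0.0600), and its fall in wild type was lost without SAF-WT replicate 2. Kif4, a chromosome-arm motor encoded on the X chromosome, had 144 and 121 CPM in PF-WT against 41.8 and 34.8 CPM in SAF-WT, and 179 and 159.7 CPM in PF-TF against 15.7 and 19.6 CPM in SAF-TF and fell 3.46-fold in wild type and 9.58-fold in TF.

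Central spindle and cytokinesis genes fell as well, 4 of 6 in wild type and 6 of 6 in TF. Kif23 (MKLP1) and Racgap1 form the centralspindlin complex, which gathers the midzone. Kif23 had 249 and 189.5 CPM in PF-WT against 42.6 and 45.5 CPM in SAF-WT, and 268 and 215 CPM in PF-TF against 20.6 and 28.4 CPM in SAF-TF and fell 4.97-fold in wild type (log2 -2.31 ± 0.25 SE, adjusted p = 0.000187) and 9.84-fold in TF. Prc1, which bundles midzone microtubules, had 366 and 373 CPM in PF-WT against 114 and 118 CPM in SAF-WT, and 446 and 343 CPM in PF-TF against 61 and 74.3 CPM in SAF-TF. It fell 3.18-fold and 5.83-fold. Kif20a, a motor of the midzone, was at 24.6 to 67.4 CPM in PF and 8.72 to 12.4 CPM in SAF. Ect2, the exchange factor that switches on RhoA at the cleavage furrow, had 90.6 and 105 CPM in PF-WT against 67 and 66.1 CPM in SAF-WT, and 122 and 119 CPM in PF-TF against 18 and 33.4 CPM in SAF-TF. Anillin (Anln), a furrow scaffold, had 98.2 and 114 CPM in PF-WT against 79.6 and 63.9 CPM in SAF-WT, and 91.9 and 73.2 CPM in PF-TF against 18.5 and 27.3 CPM in SAF-TF. Ect2 and Anln passed the threshold in TF (4.69-fold and 3.61-fold lower) and not in wild type (-0.55 ± 0.28 and -0.56 ± 0.26 SE on the log2 scale). Racgap1 had 51.3 and 111 CPM in PF-WT against 33.7 and 26.1 CPM in SAF-WT, and 88.8 and 69.7 CPM in PF-TF against 20.5 and 29 CPM in SAF-TF. Its fall in wild type was lost without PF-WT replicate 2 or either SAF-WT library, and that of Kif20a without SAF-WT replicate 1.

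Top2a and Mki67, the usual markers of cycling cells, passed no test. Top2a, the topoisomerase that untangles chromosomes, had 176 and 229 CPM in PF-WT against 196 and 166 CPM in SAF-WT, and 106 and 122 CPM in PF-TF against 71.2 and 123 CPM in SAF-TF. Mki67, which coats mitotic chromosomes, had 142 and 177 CPM in PF-WT against 155 and 113 CPM in SAF-WT, and 97.2 and 119 CPM in PF-TF against 45.4 and 94.2 CPM in SAF-TF. Their SAF-TF libraries differed from each other by more than most groups did, and replicate 2 reached the level of PF-TF for Top2a. Of the transcription factors, Mybl2 (B-Myb) had 15.5 and 20.1 CPM in PF-WT against 2.18 and 2.37 CPM in SAF-WT, and 65 and 22.5 CPM in PF-TF against 1.10 and 1.47 CPM in SAF-TF. Its fall was the largest among the members, 7.79-fold in wild type (log2 -2.96 ± 0.53 SE, adjusted p = 0.00247) and 33.7-fold in TF (log2 -5.08 ± 0.57 SE, adjusted p = 0.000152), from a PF-TF group whose libraries differed by 2.89-fold. Foxm1 was at 9.53 to 15.8 CPM in PF and 3.52 to 5.97 CPM in SAF and fell in both sources, near the members' median in wild type (-1.32 on the log2 scale) and by less than it in TF (-1.56). Its wild type call was lost with the authors' scale factors, with GC and length correction and without PF-WT replicate 2 or either SAF-WT library, and its TF call without PF-TF replicate 1 or SAF-TF replicate 1.

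**Figure D4:**
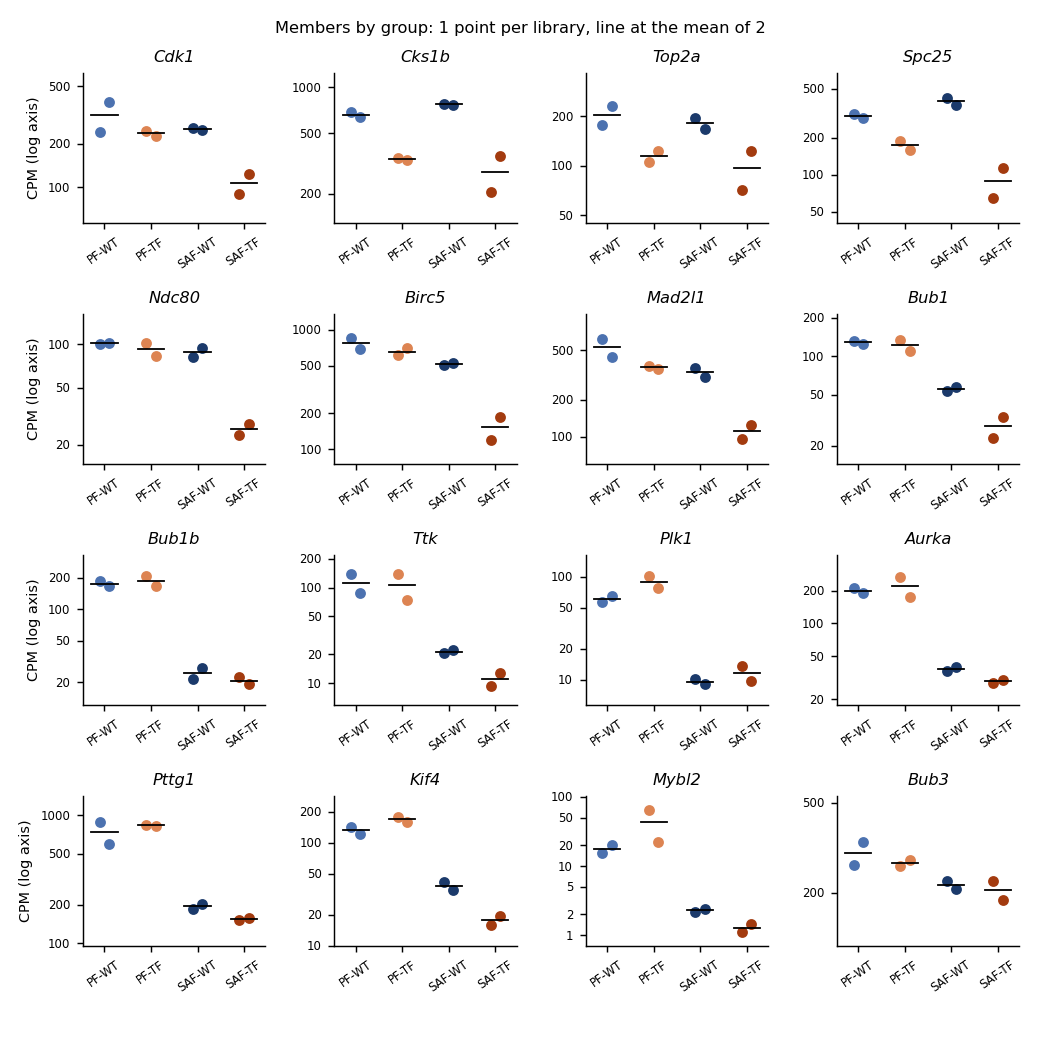
CPM (log axis) of 16 members in the 4 groups, 1 point per library and a line at the mean of 2. Panels of Cdk1, Cks1b, Top2a and Ndc80 show SAF-WT near PF-WT and the lowest mean in SAF-TF. SAF-TF also has the lowest mean for Spc25 and Birc5, where SAF-WT lies above PF-WT for Spc25 and below it for Birc5. Those of Bub1b, Ttk, Plk1, Aurka, Pttg1, Kif4 and Mybl2 show both SAF groups far below both PF groups.

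Among preantral follicles, mitotic gene levels in follicles from transplanted cells and in wild type ones did not pass the test for any member: 0 of 43 were lower and 0 higher (edgeR; background 0.151% lower and 0.0669% higher). At an unadjusted p under 0.05, 8 were lower in PF-TF (Ccna2, Cdc25c, Cenpa, Cks1b, Cks2, Mad2l1, Spc25 and Top2a) and 3 higher (Kif20a, Kif2c and Mybl2). The DESeq2 Wald test called 2 lower, Cenpa and Cks1b, and 0 higher, beside 990 lower and 332 higher of all 17925 genes. The smallest adjusted p was that of Cks1b (0.0797), with a log2 fold change of -0.97 ± 0.25 (SE). Libraries did not overlap in 15 members that were lower and 7 that were higher in PF-TF (background 26.1% and 22.9%). The members' median was -0.13, beside -0.03 over all genes. The 15 oocyte markers had a median log2 difference of 1.25 in the same comparison with 0 past the threshold.

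Among small antral follicles, 21 of 43 members were lower in SAF-TF than in SAF-WT and 0 were higher (edgeR; background 5.34% lower and 4.61% higher). At an unadjusted p under 0.05 and in DESeq2, 0 were higher. DESeq2 called 27 lower, beside 1613 lower and 1236 higher of all 17925 genes. The median log2 difference was -0.97, beside 0.00 over all genes, and 34 members were lower without overlap of the libraries, with 0 higher (background 32.5% and 31.3%). The count depended on which SAF library was left out. Most calls were lost without SAF-TF replicate 1 or either SAF-WT library, and most were kept without SAF-TF replicate 2. All genes gave fewer calls in each of these fits too, and the 21 log2 differences kept their sign. Without SAF-TF replicate 1 they included -1.46 for Birc5 and -0.75 for Ccnb2, beside -1.75 and -1.13 with all libraries.

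By role, the lower members were 5 of 6 of the CDK1 group, 0 of 3 mitotic kinases, 1 of 4 of the passenger complex, 2 of 5 checkpoint genes, 5 of 6 kinetochore genes, 1 of 5 APC/C genes, 4 of 4 spindle assembly genes, 3 of 6 cytokinesis genes, 0 of 2 of the chromosome group and 0 of 2 transcription factors. Spc25 differed most, 4.46-fold (log2 -2.16 ± 0.27 SE, adjusted p = 0.00402), with SAF-WT at 422 and 368 CPM and SAF-TF at 64 and 113. Ndc80 was 3.42-fold lower (log2 -1.77 ± 0.22 SE, adjusted p = 0.00393). Birc5, Cks2 and Anln were 3.37-, 3.36- and 3.13-fold lower. Cdk1 was 2.37-fold lower (adjusted p = 0.0199) and Ccna2 2.63-fold (0.00871). The 9 members with the largest falls from PF-WT to SAF-WT did not pass here, with log2 differences from -0.95 (Ttk) to 0.30 (Plk1). They included -0.85 ± 0.24 for Kif23 (adjusted p = 0.0560), -0.82 ± 0.59 for Mybl2, 0.30 ± 0.28 for Plk1, -0.38 ± 0.24 for Aurka, -0.23 ± 0.23 for Bub1b and -0.33 ± 0.21 for Pttg1. The cut at 9 was set after the values were seen. Kif4, the member with the next largest fall, did pass (edgeR, log2 -1.12 ± 0.23 SE, adjusted p = 0.0190). This comparison and the wild type stage comparison share the SAF-WT libraries, whose spread moves them in opposite directions.

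The 2 SAF-TF libraries differed from each other more than those of other groups did. The ratio of the higher to the lower library had a median over the members of 1.42 in SAF-TF, against 1.09 in SAF-WT, 1.22 in PF-TF and 1.19 in PF-WT. Replicate 2 of SAF-TF was the higher one in 38 of 43 members. The same library pair differed in markers of other cells: luteal markers summed to 37016 CPM in replicate 1 and 26649 in replicate 2, stromal markers to 2149 and 1480.0, oocyte markers to 662 and 316, and granulosa markers to 2357 and 3709. Theca and interstitial markers (8 genes) summed to 706 and 379.8 CPM in SAF-TF, against 773 and 720.2 in SAF-WT. Macrophage and immune markers summed to 529.6 and 527 CPM in SAF-TF, against 34.1 and 52.8 in SAF-WT. Relative to SAF-WT, all 8 luteal markers and 4 of 8 macrophage and immune markers were higher in SAF-TF, 3 of 8 stromal, 4 of 7 tested theca and interstitial and 3 of 15 oocyte markers were lower, 1 theca and interstitial marker was higher, and 2 of 14 granulosa markers (Inha and Fshr) were higher. No listed marker was at 0 in either group. Their part in the members' differences was not tested.

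Oocyte RNA moved with the stage effect. The 15 oocyte markers fell in 9 cases in wild type and in all 15 in TF, with 0 higher, and Gdf9 went from 669.8 and 1274 CPM in PF-WT to 24.8 and 81.8 in SAF-WT and from 2954 and 2323 in PF-TF to 27.9 and 27 in SAF-TF. Of the 14 granulosa markers, 7 fell in wild type and 4 in TF, with 0 higher. Stromal markers were higher in SAF in all 8 cases in both sources. In SAF-WT the oocyte sum was 794 CPM in replicate 1 and 3865 in replicate 2, and the sum of the 43 members was 5991 and 5844. Summed over all 43, the members were at 8929 to 9537 CPM in PF-WT, 7575 to 8245 in PF-TF, 5844 to 5991 in SAF-WT and 2126 to 3035 in SAF-TF. The part of cell composition in these falls was not tested.

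**Figure D5:**
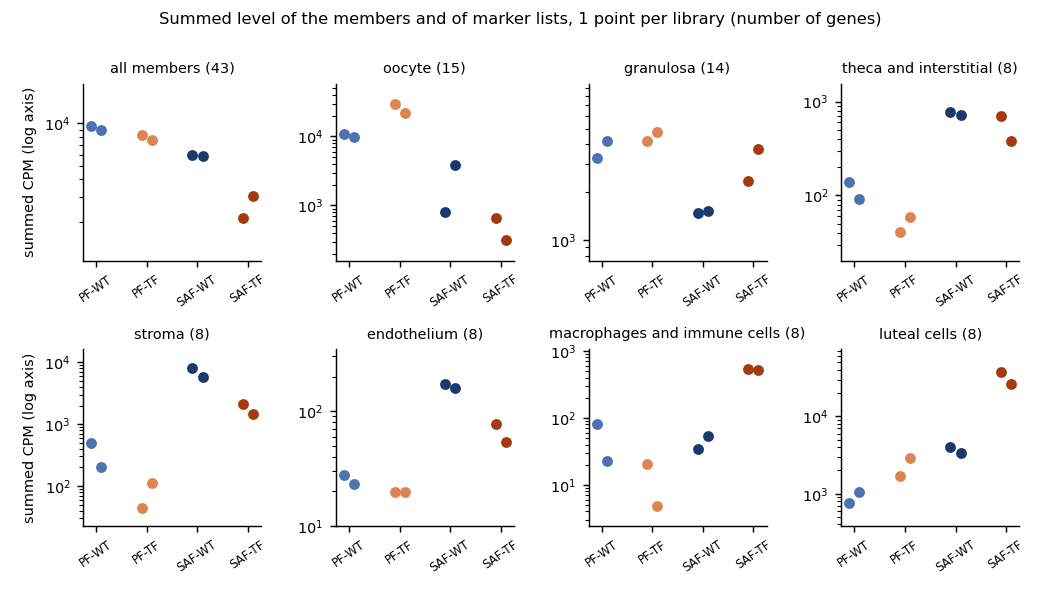
Summed CPM (log axis) of the 43 members and of 7 lists of cell type markers, 1 point per library; the number of genes in each list stands in its title. The members' sum steps down from the PF groups to SAF-WT and again to SAF-TF, and the luteal and macrophage sums are highest in SAF-TF.

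Levels can be ordered between genes only per length, here as CPM per kilobase of the shortest principal GENCODE transcript. In PF-WT the order ran from Pttg1 (1063 CPM per kilobase), Birc5 (814), Cks1b (779), Ube2c (536) and Cks2 (508) down to Mybl2 (4.87), Foxm1 (3.08) and Espl1 (2.40). With the longest principal transcript, an alternative chosen after seeing the data, Pttg1 had 780.5 CPM per kilobase in PF-WT and came after Birc5, and it still led in PF-TF (879 CPM per kilobase), stood at rank 7 in SAF-WT and at rank 3, after Ube2c, in SAF-TF. In SAF-WT Cks1b led (910 CPM per kilobase, from libraries at 779.5 and 765 CPM), followed by Birc5 (543), Ube2c (462), Cks2 (444) and Spc25 (331), and Pttg1 stood at rank 6 (280.0). In SAF-TF the leaders were Cks1b (327), Pttg1 (222), Ube2c (201), Birc5 (161) and Cks2 (132), whose libraries differ enough that neighbours in this order cannot be separated. Bub1b moved from rank 20 in PF-WT to 36 in SAF-WT. Of the members' summed CPM, the CDK1 group made up 19.9 and 21.2% in PF-WT against 29.6 and 29.8% in SAF-WT, and 14.0 and 15.1% in PF-TF against 23.6 and 26.9% in SAF-TF, so the groups did not overlap in this share.

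The wider mitosis machinery took the same course in part. Of 118 other mitosis genes in 6 lists, 55 fell (46.6%) and 7 rose (5.93%) in wild type, where 22.5% of all genes tested were lower and 12.7% higher. In TF 74 fell (62.7%) and 5 rose (4.24%), beside 25.0% and 18.2% of all genes. The medians were -0.75 and -1.29. Without SAF-WT replicate 1 the wild type falls were 30, and without replicate 2 they were 33. Cyclin B1 (Ccnb1), the main mitotic cyclin, had 869 and 710.2 CPM in PF-WT against 179.7 and 147 CPM in SAF-WT, and 983 and 856 CPM in PF-TF against 70.3 and 106 CPM in SAF-TF. Its fall passed the test in wild type, at 4.83-fold (log2 -2.27 ± 0.25 SE, adjusted p = 0.000202), and in TF, at 10.4-fold. Its sister Ccnb2 was also lower in SAF-WT (log2 fold change -0.46) but did not pass the test there. Among the 17 genes of the mitotic switch, 10 fell in wild type (58.8%) and 13 in TF (76.5%). Mos, the kinase that arrests the egg in meiosis and is made by the oocyte, fell 52.3-fold in wild type and 59.2-fold in TF.

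Of 37 other kinetochore and checkpoint genes, 18 fell (48.6%) and 1 rose in wild type, and 25 fell (67.6%) and 0 rose in TF, against the 22.5% and 25.0% of all genes that were lower. Dsn1, which anchors the outer kinetochore, had 135 and 108 CPM in PF-WT against 18 and 15.2 CPM in SAF-WT, and 166 and 159.8 CPM in PF-TF against 10.1 and 11.4 CPM in SAF-TF. Aurkc, the Aurora kinase of germ cells, was at 33 to 69.1 CPM in PF and 0.677 to 1.54 CPM in SAF. In the list of 23 spindle and cytokinesis genes, 14 fell in wild type (60.9%) and 17 in TF (73.9%). Aspm, a spindle pole protein, had 833 and 477 CPM in PF-WT against 48.3 and 48.2 CPM in SAF-WT, and 702 and 639 CPM in PF-TF against 32.8 and 33.9 CPM in SAF-TF, and Tacc3, which strengthens spindle fibres, 429 and 411 CPM in PF-WT against 63.1 and 89.8 CPM in SAF-WT, and 938 and 729 CPM in PF-TF against 33.9 and 50.2 CPM in SAF-TF. Of 17 condensin and cohesin genes, 6 fell (35.3%) and 1 rose in wild type and 7 fell (41.2%) and 2 rose in TF, nearer to the shares over all genes. Cdca5 (sororin, which locks cohesin) fell 7.84-fold and 17.1-fold. For 10 MuvB and DREAM genes, 3 fell in wild type (30.0%, near the 22.5% of all genes) and 6 in TF (60.0%), and E2f4, the repressing E2F, had 39.9 and 50.9 CPM in PF-WT against 9.75 and 9.12 CPM in SAF-WT, and 143 and 63.6 CPM in PF-TF against 29.5 and 14.7 CPM in SAF-TF.

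The genes that rose were few, and they are named here after their values were seen. In the list of 14 APC/C subunits, 4 rose and 4 fell in wild type (28.6% each), and 3 rose (21.4%) and 6 fell (42.9%) in TF. All genes gave 12.7% higher and 22.5% lower in wild type, and 18.2% and 25.0% in TF. Anapc13 had 115 and 103 CPM in PF-WT against 303 and 269 CPM in SAF-WT, and 49.4 and 65.5 CPM in PF-TF against 165 and 204 CPM in SAF-TF and rose 2.61-fold in wild type (log2 1.39 ± 0.22 SE, adjusted p = 0.00137) and 3.20-fold in TF. Anapc11 and Cdc26 also rose in both sources, Cdc26 by 2.19-fold and 1.86-fold. Stag2, a cohesin subunit, had 143 and 135 CPM in PF-WT against 309 and 230.3 CPM in SAF-WT, and 123 and 125 CPM in PF-TF against 179.5 and 197 CPM in SAF-TF and rose in both. Anapc10, Arpp19 and Ska2 rose in wild type alone by their calls, and Rad21 in TF alone, with no difference between the sources past its test. Without one SAF-WT library, 3 or 4 genes rose in wild type in place of 7. Without a single PF-TF, SAF-WT or SAF-TF library, 1 to 3 rose in TF in place of 5.

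Between the sources, the 118 other genes gave 0 calls in PF. At an unadjusted p under 0.05, 17 were lower and 10 higher. DESeq2 called 7 lower and 3 higher, beside 990 and 332 of all 17925 genes. In SAF, 32 (27.1%) were lower in TF and 1, Cenpo, was higher, beside 5.34% and 4.61% of all genes. These 32 calls fell to 3 without SAF-WT replicate 1, 5 without SAF-WT replicate 2, 2 without SAF-TF replicate 1 and 16 with GC and length correction, and rose to 49 in DESeq2. Over all 17925 genes DESeq2 called 1613 lower in SAF-TF. The smallest p-values of the other genes were those of the inner kinetochore genes Cenpp and Cenpk. Cenpk had 262 and 215 CPM in SAF-WT against 27.4 and 59.1 in SAF-TF (5.52-fold lower), and Cenpp 134 and 125 and 16.7 and 31.9 (5.32-fold). For the interaction 0 of 118 passed in edgeR (unadjusted: 27 lower, 2 higher). DESeq2 called 6 lower and 0 higher, beside 328 and 482 of all 17925 genes.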

How the data were processed

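Polyadenylated RNA of 8 single follicles was copied and amplified by the SMARTer Ultra Low Input method, per the labels' protocols. The submitters' processing notes name HISAT2 2.0.1 and GRCm38. The counter, annotation, strand setting and handling of overlapping genes are not stated. The deposited tables, 1 per source, hold raw counts. They also hold the authors' normalized signal (the group mean of scaled counts), their log2 ratio of SAF to PF and their FDR, an adjusted p-value from a test not named in the sources used here.

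The counts of the 21997 shared genes in all 8 libraries were fitted together with edgeR 4.0.16 (R 4.3.3): genes kept by filterByExpr (minimum count 10, minimum total 15), TMM factors, a mean for each of the 4 groups, 4 residual degrees of freedom and a quasi-likelihood test of each contrast, with a common biological coefficient of variation of 0.303. P-values were adjusted by Benjamini-Hochberg over the 17925 genes tested, with a threshold of 0.05. The wild type stage comparison was also run on simulated counts with changes placed in known genes. This did not test the TF, source or interaction contrasts, or the scaling of libraries when many genes change. Alternatives were RLE factors, the authors' scale factors, other low-count filters, DESeq2 1.42.0, fits without the other 4 libraries, a replicate block, GC and length correction, and each library left out.

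The members and all gene lists were chosen with earlier results of these data known. Any member could be named. Fold changes were to be given for members past the threshold, for the 3 smallest p-values per contrast and for roles with called members, and those of other members were added after their values were seen. Of each other list, up to 3 genes past the threshold per contrast could be named, plus Ccnb1, Gdf9, Amh, Fshr and Inha. Promoter sequences are from RefSeq (GRCm38.p6).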

Additional observations from a re-analysis of the deposited data

Results flagged for a closer look

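The stage effect of Ndc80, the microtubule-binding kinetochore subunit, differed between the sources in the direct test: the log2 change from PF to SAF was more negative in TF by -1.645 (edgeR, SE 0.31, adjusted p = 0.0425). Both SAF-TF libraries, at 23.4 and 28.1 CPM, were below the other 6, at 82.1 to 102 CPM. The adjusted p was 0.0855 with the replicate number as a block, 0.0551 with GC and length correction, and 0.0539 to 0.185 with single libraries left out, so the call did not hold in those settings.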

How the results depend on the processing

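The count of members that fell in wild type was 24, and 21 to 25 in the alternative settings other than leaving out libraries. For SAF-TF against PF-TF it was 37, and 33 to 37. With single libraries left out these counts were 17 to 24 and 31 to 38. The count lower in SAF-TF than in SAF-WT was 21, 18 to 27 in the other settings, and 1 to 24 with single libraries left out. Among PF follicles DESeq2 called 2 members lower (990 of all 17925 genes), where edgeR called 0. The stage by source count was 1 (Ndc80), 10 in DESeq2 (328 of all 17925 genes), 0 with the replicate block and 0 with GC and length correction. Ndc80 missed the threshold with each library left out in turn, with log2 differences of -1.43 to -1.78. No direction of a called value reversed.

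Same-numbered libraries of different groups did not visibly deviate together (correlations of -0.0999 to 0.0794). Whether the numbers pair the libraries cannot be decided from these values, because spread between single follicles could hide a shared deviation. With the replicate block the 3 larger counts were 22, 37 and 18. Within 100 bases before the start the shares of member promoters with a match were 25.0% for TTTGAA, 5.56% for TTTAAA and 47.2% for GGGCGG. Promoters of tested genes had 3.25%, 2.65% and 43.8% in the same window, so GGGCGG was there near its background share. In these cases the cause was not tested, except that the shorter window holds fewer bases and a left-out library leaves 1 in its group, which is then assumed to vary like the others. Low members such as Mybl2 and Espl1 rest on as few as 10 counts in a library.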
